A study of Mus musculus with 15 samples.

Results

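The regions described here are stretches of the mouse genome that p53 chromatin immunoprecipitation sequencing (ChIP-seq) listed in 1 or 2 of 3 organs and that lie at the ends of neighbouring protein-coding genes. They were chosen by list membership and position: a region had to be missing from at least 1 of the 3 organ lists, and its midpoint had to lie within 1000 bp of an end of at least 2 different coding genes of the RefSeq annotation of GRCm38.p6. There were 285 such regions, called gene-pair regions below, among 4137 distinct regions of the 3 lists and among 2207 that were not in all 3. A further 41 regions at paired coding gene ends were in all 3 lists and are given only for comparison. The midpoint lay outside both genes, and so strictly between or beside them, in 81 of the 285 regions (28.4%), so the set is described as lying at paired gene ends and not between genes.

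In ChIP-seq an antibody against a protein, here p53 per the title of the series, enriches the DNA bound to it, which is then sequenced. The labels give 15 libraries from wild-type (WT) mice: per organ there were 2 untreated libraries, 2 libraries from irradiated mice (2 Gy of X-rays, 3 h) and 1 input library, for liver, spleen and thymus. The age of the mice, the antibody and any pooling of animals are not given in the labels. The authors deposited 1 region list per organ, which the labels attach to all 5 libraries of that organ, and which carries the words for irradiation and IgG in its name although no library is labelled IgG. Each list is thus 1 measurement per organ with unknown depth. No replicate error can be given, no test between organs or of irradiation was possible, and the regions of a list are not replicates. Organ identity could not be checked against marker genes, since the lists hold no expression values.

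p53 is a transcription factor that DNA damage stabilizes. It binds DNA as a tetramer at a response element made of a pair of half-sites, and it induces genes of cell-cycle arrest, apoptosis, DNA repair and metabolism. Neighbouring coding genes often start close together on opposite strands and then share a bidirectional promoter. Such promoters are typically rich in CpG and poor in TATA boxes, and many serve housekeeping genes of repair, RNA processing and mitochondria, which are used in liver as in lymphoid organs. Factors that recognize them include Sp proteins at GC boxes, ETS factors, NF-Y at CCAAT boxes and NRF1, a regulator of genes for mitochondria.

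The sequences below show the DNA on which some of these regions lie. Each is the part of a region that is outside its coding genes and inside a RefSeq gene start window, read from the plus strand of GRCm38.p6, 5′ to 3′. Capitals mark matches, on either strand, to motifs searched by their exact letters. These were the GC box GGGCGG bound by Sp proteins, the CCAAT box named by its letters, and the ETS core, which was searched as CCGGAAG in the same way. The NRF1 core was GCGCATGC, the YY1 core AAGATGGC and the cAMP response element TGACGTCA. The TATA box was searched in the common form TATAAA, the E-box in the form that MYC and related proteins bind, CACGTG, and the p53 half-site in its usual consensus. The NRF1 core nearly reads the same on both strands, so matches on the 2 strands overlap. The first sequence comes from the region that ranked highest among those of the liver list alone, between Sfxn2, a mitochondrial carrier, and Arl3, a small GTPase of cilia (chr19:46573183-46573324). It holds GC boxes and an E-box.
Sfxn2/Arl3: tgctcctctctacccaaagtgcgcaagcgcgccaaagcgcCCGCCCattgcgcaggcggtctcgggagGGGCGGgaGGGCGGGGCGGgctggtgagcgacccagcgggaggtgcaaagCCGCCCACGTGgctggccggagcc
The next 3 are from the liver list alone and hold the NRF1 core: Cep57l1 and Sesn1 (chr10:41809869-41810050), Map4k1 and Eif3k (chr7:28981901-28982049), and Tdp1 and Efcab11 (chr12:99884443-99884514).
Cep57l1/Sesn1: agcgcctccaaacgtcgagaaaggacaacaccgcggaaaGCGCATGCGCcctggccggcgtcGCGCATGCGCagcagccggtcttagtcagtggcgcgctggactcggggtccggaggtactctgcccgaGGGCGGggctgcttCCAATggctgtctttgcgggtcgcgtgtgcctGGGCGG
Map4k1/Eif3k: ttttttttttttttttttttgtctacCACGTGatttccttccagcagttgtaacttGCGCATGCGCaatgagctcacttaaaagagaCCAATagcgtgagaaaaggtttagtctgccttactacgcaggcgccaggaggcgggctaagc
Tdp1/Efcab11: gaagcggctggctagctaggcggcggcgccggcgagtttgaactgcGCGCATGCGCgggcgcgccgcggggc
The following pair comes from regions that the spleen list held too. They lie at Pagr1a and Prrt2 (chr7:127017353-127017541), with NRF1 and YY1 cores, and at Lsm7 and Sppl2b (chr10:80855210-80855241), with overlapping GC boxes.
Pagr1a/Prrt2: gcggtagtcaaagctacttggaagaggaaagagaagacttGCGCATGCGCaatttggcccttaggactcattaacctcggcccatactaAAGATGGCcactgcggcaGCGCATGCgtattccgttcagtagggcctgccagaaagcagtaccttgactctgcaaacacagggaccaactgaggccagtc
Lsm7/Sppl2b: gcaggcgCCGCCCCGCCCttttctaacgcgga
Liver and thymus shared the regions at Arpc5 and Rgl1 (chr1:152766401-152766541) and at Acp1 and Sh3yl1 (chr12:30911620-30911668), shown for their GC boxes.
Arpc5/Rgl1: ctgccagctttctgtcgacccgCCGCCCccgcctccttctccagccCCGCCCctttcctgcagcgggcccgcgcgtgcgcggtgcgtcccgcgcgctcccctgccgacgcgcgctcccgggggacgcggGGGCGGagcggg
Acp1/Sh3yl1: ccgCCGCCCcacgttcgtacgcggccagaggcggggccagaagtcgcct
The last is shown because it holds a p53 half-site. It belongs to the liver list alone and lies at Sumf2 and Cct6a (chr5:129846901-129846989).
Sumf2/Cct6a: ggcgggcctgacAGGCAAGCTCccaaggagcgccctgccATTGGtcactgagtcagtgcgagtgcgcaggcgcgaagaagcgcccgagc
A match is a description of the letters and not evidence of binding by the factor. No match says only that these letters are not in the stretch shown. All stretches shown hold a match, and they are not a typical sample, since stretches of some other gene-pair regions hold none. Of the 129 gene-pair regions wholly inside a window, 17 held the NRF1 core (13.2%). At the end of exactly 1 coding gene, 67 of 392 such regions not in all 3 lists held it (17.1%).

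The liver list, the longest of the 3, held all gene-pair regions but 1. It had 284 of the 285 regions, against 47 in the spleen list and 30 in that of thymus, which is 7.33% of the 3872 liver regions, 1.80% of the 2604 spleen regions and 1.25% of the 2405 thymus regions. With each list shortened to its 2405 highest scores, the rule chose 221 regions. Liver held 194 of them (87.8%), spleen 27 (12.2%) and thymus 45 (20.4%). The thymus list kept its full length, and 15 of the 221 were not among the 285. The rise of the thymus share from 10.5% thus compares different sets of regions. By combination of the full lists, 208 regions were held by liver alone (73.0%, exact Clopper-Pearson 95% interval 67.4 to 78.1), beside 56.9% of all 2207 regions not in all 3 lists. Liver and spleen shared 47 (16.5%, 12.4 to 21.3), beside 19.8% of all such regions, and liver and thymus shared 29 (10.2%, 6.92 to 14.3), beside 11.3%. Thymus alone held 1 region (0.351%), beside 1.31%. None was held by spleen and thymus together, beside 8.93% of all such regions, and none by spleen alone, beside 1.77%. A count of 0 among 285 allows a share of up to 1.29%. The intervals cover counting error only. Because list membership helped to choose the regions, these shares describe the set and are not tested.

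The organ shares of gene-pair regions were close to those of the 1116 regions at the end of exactly 1 coding gene. Of the latter, 757 were held by liver alone (67.8%, 65.0 to 70.6), an interval that overlaps that of the gene-pair regions. Regions away from coding gene ends were distributed otherwise: of 806, liver alone held 290 (36.0%, 32.7 to 39.4) and spleen and thymus together held 192 (23.8%, 20.9 to 26.9). Presence in all 3 lists followed the same division. It applied to 41 of 326 regions at paired ends (12.6%, 9.18 to 16.7), to 230 of 1346 at 1 end (17.1%, 15.1 to 19.2) and to 1659 of 2465 away from coding gene ends (67.3%, 65.4 to 69.2).

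**Figure D1:**
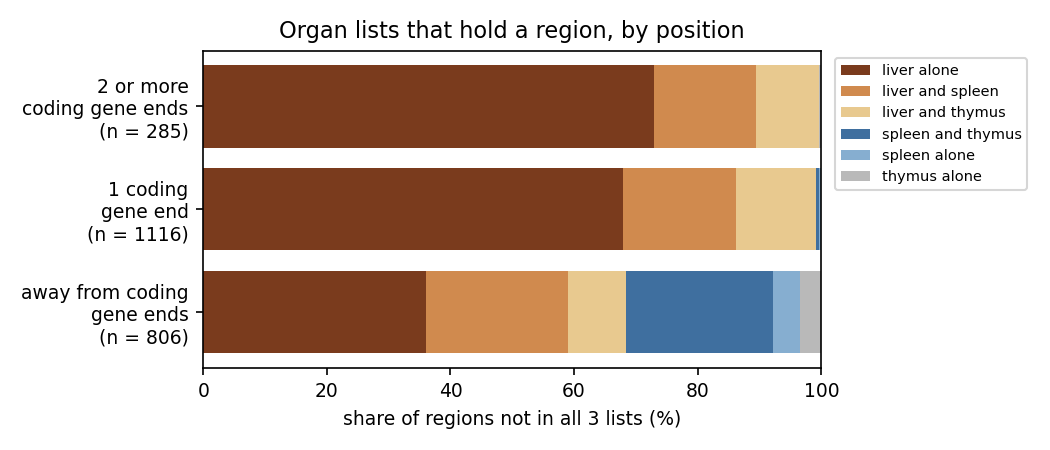
Share of regions (%, horizontal axis) held by each combination of organ lists, for regions not in all 3 lists at 2 or more coding gene ends (n = 285), at 1 coding gene end (n = 1116) and away from coding gene ends (n = 806). Liver alone makes up 73.0%, 67.8% and 36.0% of the bars, and spleen and thymus together are visible mainly away from gene ends (23.8%).

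Within the liver list the gene-pair regions were of middling rank. Scores are the authors' own and their scale is not given, so each was converted to its percentile within its list, with 100 as the highest score. The 284 liver percentiles ran from 0.336 to 97.1 with a median of 52.5 and quartiles of 28.5 and 74.0. Regions at 1 coding end had a median of 48.2 and regions away from ends one of 45.3. The interval of the gene-pair median was 45.4 to 57.1, which contains the former value and nearly reaches the latter. Regions of the liver list alone had a liver median of 52.7 (n = 208), those shared with spleen 50.7 (n = 47) and those shared with thymus 40.6 (n = 29). The quartiles of these classes overlapped widely. Among gene-pair regions above liver percentile 75, 22 of 66 were also in a second list (33.3%), and among those up to percentile 25, 16 of 59 were (27.1%).

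In the second list the shared regions stood low. The 47 regions shared with spleen had spleen percentiles from 1.15 to 31.9 with a median of 6.91, and none was above 50. Their spleen scores ran from 7.2 to 15.3, where the spleen list starts at 7.0. The 29 regions shared with thymus had thymus percentiles from 0.229 to 44.4 with a median of 12.9, again with none above 50. Regions at 1 coding end had similarly low medians, 10.3 in spleen and 12.6 in thymus, whereas shared regions away from coding ends had medians of 29.6 and 20.7. Regions at paired ends that were in all 3 lists ranked higher in each organ, with medians of 67.5 in liver, 24.9 in spleen and 17.3 in thymus (n = 41). How many regions missing from a list lay just under its lowest score was not tested, since each list ends near a score of 7.0.

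**Figure D2:**
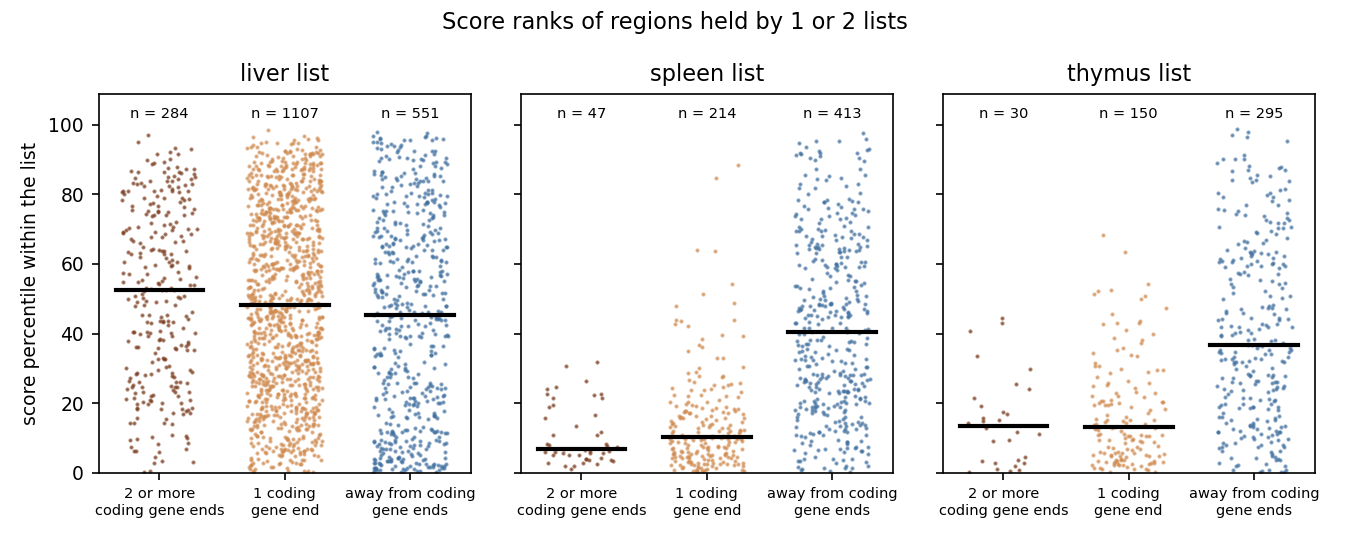
Score percentile within the liver, spleen and thymus lists (vertical axis, 0 to 100) of regions held by 1 or 2 lists, split by position relative to coding gene ends. Each point is a region and each bar a median: gene-pair regions have medians of 52.5 in liver, 6.91 in spleen and 13.5 in thymus.

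Comparing the ranks of the same region in 2 lists gave a liver rank above the spleen rank in 47 of 47 gene-pair regions. The median difference was 39.4 percentile points and the range 1.70 to 93.1. The count was 190 of 205 (92.7%) at 1 coding end and 107 of 186 (57.5%) away from coding ends. Against thymus, the liver rank was the higher in 23 of 29 gene-pair regions (79.3%), in 118 of 145 at 1 coding end and in 56 of 75 away from ends (74.7%). The 6 exceptions had thymus percentiles between 19.2 and 43.0 and liver percentiles between 4.65 and 28.5. They lie at Cage1 and Riok1, a kinase of ribosome assembly; Gmpr2 and Nedd8, the ubiquitin-like modifier of cullins; Npcd and Cbx6, a Polycomb protein; Ptpa and Crat, carnitine acetyltransferase; Hspb11 and Lrrc42; and Yipf2 and Timm29. In absolute score liver was the higher in 27 of the 29, beside 133 of 145 at 1 coding end. The scores of 2 lists may not share a scale.

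**Figure D3:**
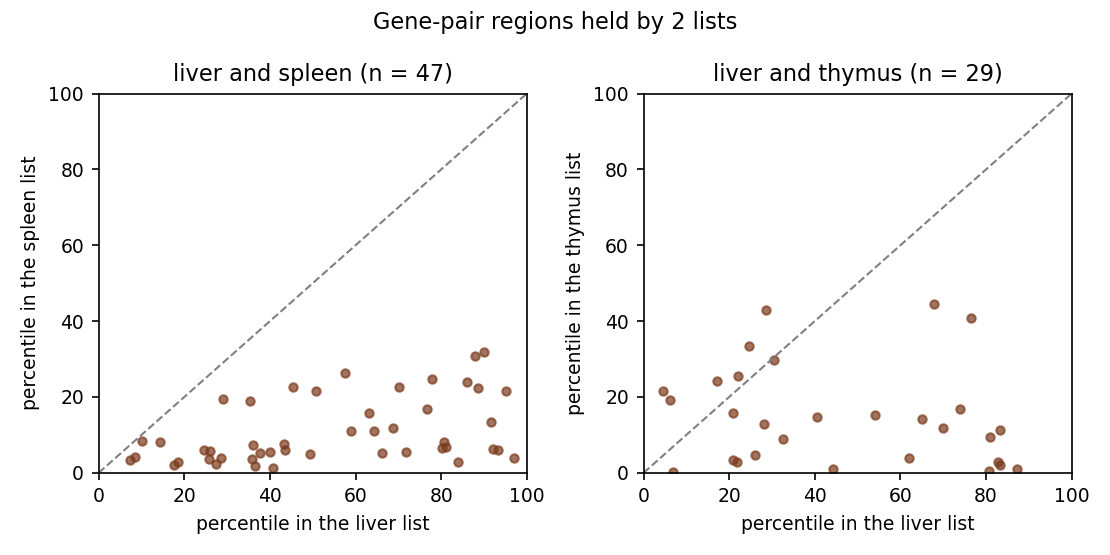
Percentile in the liver list (horizontal axis) against percentile in the spleen list (left, n = 47) or the thymus list (right, n = 29) for gene-pair regions held by 2 lists, with the line of equal rank dashed. All 47 points of the left panel and 23 of the 29 on the right lie below the line.

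The strongest regions of the liver list alone joined genes of unrelated roles. After Sfxn2/Arl3 (liver percentile 93.4, score 31) came Spry4/Arhgap26 at 91.5, where Spry4 restrains receptor tyrosine kinase signalling. Tbc1d10b/Mylpf (chr7:127208501-127208750) followed at 90.3, joining a Rab-inactivating protein and a light chain of fast skeletal muscle myosin. Jkamp/L3hypdh (chr12:72085901-72086050), at 89.4, joins a membrane partner of the kinase JNK and an enzyme of hydroxyproline breakdown. Nhej1/Slc23a3 (chr1:75125001-75125050), at 88.9, lies inside Nhej1, a factor of non-homologous end joining. Uso1/G3bp2, at 87.7, joins a Golgi tether and a stress granule protein. Oplah/Gpaa1/Exosc4, at 87.3, touches 3 genes: an enzyme of glutathione turnover, a subunit that attaches lipid anchors to proteins and a subunit of the RNA exosome.

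The remaining 5 of the 12 highest had liver percentiles from 85.9 to 86.7: Mageb3/Ctdspl2, Gpbp1l1/Tmem69, Map4k1/Eif3k, Dnaic1/Fam219a and Trim23/Trappc13/Shld3. Map4k1 is a kinase of blood cells and Eif3k a subunit of a translation initiation factor. Shld3 belongs to shieldin, a complex that protects broken DNA ends. The lowest ranks of the liver list alone were those of Zcrb1/Pphln1 (0.594) and Duxf3/Gm4981 (0.336).

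Regions shared by liver and spleen with high mean percentiles ranked high in liver and far lower in spleen. Pagr1a/Prrt2 had percentiles of 87.8 in liver and 30.7 in spleen, and Pagr1a is a partner of histone methyltransferases. Tubg1/Retreg3 had 95.2 and 21.5, where Tubg1 encodes the tubulin that nucleates microtubules. Gm40415/Plxna1 (88.7 and 22.2), Mettl6/Eaf1 (86.1 and 24.1) and Lsm7/Sppl2b (91.6 and 13.3) completed those named. In each of these 5 the liver percentile exceeded the spleen percentile by more than 50 points, a description of these lists without replicate error. The region with the highest liver percentile of all 285, at 2310061I04Rik/Atat1, was also in the spleen list, at 97.1 in liver and 4.03 in spleen. It was named after its values were seen.

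Among regions shared by liver and thymus, Nt5c3/Vmn1r4 had percentiles of 76.6 in liver and 40.8 in thymus. Nt5c3 encodes a pyrimidine nucleotidase and Vmn1r4 a vomeronasal receptor. Rbak/Spdye4b (67.9 and 44.4), Acp1/Sh3yl1 (83.4 and 11.2), Arpc5/Rgl1 (74.0 and 16.8), Tmem104/Nat9 (80.8 and 9.48) and Ndufs6/Mrpl36 (87.3 and 1.04) followed by mean percentile. Arpc5 is a subunit of the actin-nucleating Arp2/3 complex, and Ndufs6 and Mrpl36 serve complex I and the mitochondrial ribosome. The spread of thymus ranks from 1.04 to 44.4 was thus wide even among these 6 regions. The single region of thymus alone lay inside Fut11, a fucosyltransferase gene, near Sec24c, which encodes a coat protein of transport vesicles (chr14:20695301-20695350), and had a thymus percentile of 17.5.

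By gene role, 2 listed p53 target genes were at gene-pair regions. So small a count cannot be told apart from the share of all coding genes with a close neighbour. The count does not cover paired-end regions in all 3 lists, which the rule leaves out. The 285 regions touched 571 distinct coding genes, 277 regions touching 2 and 8 touching 3. That is 2.61% of all 21887 coding genes and 8.10% of the 7048 that have another coding gene end within 2000 bp. Of 69 listed p53 target genes 24 have such a neighbour and 2 were at a gene-pair region (8.33% of 24). Sesn1, a stress-induced regulator of mTORC1, was at a region of the liver list alone (chr10:41809801-41810050, percentile 85.3), although its end was 648.5 bp from the midpoint and that of Cep57l1 57.5 bp. Polk, a translesion DNA polymerase, was at a region (chr13:96542201-96542650) with percentiles of 50.7 in liver and 21.5 in spleen. Apaf1, Polh, Trp53 and Wrap53 of the same list were at paired-end regions held by all 3 lists. That is 4 of the 24 with a close neighbour, beside 82 of the 7048 coding genes with one. Genes of a pair can share a region, so these 4 genes need not stand for 4 regions.

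The list of DNA repair and replication genes had 14 of the 117 with a close coding neighbour (12%), beside 8.10% of all coding genes with one. These were at 14 regions, of which 8 were of liver alone, beside 208 of all 285. The list is not complete: Nhej1, Shld3 and Gen1, for example, were at gene-pair regions and are not on it. In the liver list alone stood Tdp1, which removes trapped topoisomerase from DNA (percentile 84.6), Xrcc1, a scaffold of single-strand break repair (71.2), Mbd4, a glycosylase (59.4), Timeless (57.1), Palb2, the partner of BRCA2 (49.0), Smc6 (43.1), Atm, the kinase that signals double-strand breaks (36.2), and Fancf (30.8). The Smc6 region also lies near the start of Gen1, which encodes a resolvase of DNA junctions. The Atm region (chr9:53536701-53536850) lies near the starts of Atm and Npat. Lig4, the ligase of end joining, had percentiles of 40.1 in liver and 5.59 in spleen. Babam2 (44.3 in liver, 0.894 in thymus) and Orc3 (28.1 and 12.9) were shared with thymus. Liver percentiles of the group ran from 17.7 to 84.6 with a median of 43.7, beside 52.5 over all gene-pair regions.

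Chaperone genes at the regions numbered 8 of 65 with a close neighbour (12.3%), beside 8.10% of all coding genes with one, at 7 regions. The CCT ring, which folds actin and tubulin, gave 3 of them in the liver list alone: Cct3 (percentile 77.5), Cct6a (71.5) and Cct5 (63.7). The midpoint of the Cct6a region was 14.5 bp from the start of Sumf2 and 532.5 bp from the 3′ end of Cct6a. Bag1 (40.2) and Tbcb (38.0) were also of liver alone. Hspe1 and Hspd1, whose products form the mitochondrial chaperonin, shared 1 region (chr1:55087801-55088050) with nearly equal percentiles of 30.5 in liver and 29.8 in thymus. Hspb11 had 4.65 in liver and 21.6 in thymus.

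Other gene groups at the regions were touched at shares from 5.71% to 15.8% of their genes with a close neighbour, beside the 8.10% of all coding genes. A close neighbour can lie at either end of a gene. Among coding pairs of known strand, a region was at 17.9% of those whose closest ends are opposite-strand starts. It was at 0.0904% of those whose closest ends are 3′ ends. How each group divides between these arrangements was not tested. RNA polymerase, splicing and RNA decay had 24 of 160 genes (15.0%) at 25 regions, with 5 subunits of the RNA exosome, Exosc4 to Exosc8. Liver alone held 19 of these 25 regions, beside 208 of all 285 (73.0%). The mitochondrial ribosome had 7 of 50 (14%) at 7 regions, of which 2 were of liver alone. Respiratory chain and mitochondrial import had 10 of 93 (10.8%), and cytosolic ribosome and translation initiation 4 of 70 (5.71%). Ubiquitin and proteasome genes had 12 of 111 (10.8%), 10 of 12 regions being of liver alone. Aminoacyl-tRNA synthetases had 3 of 19 (15.8%), vesicle traffic and lysosome 11 of 104 (10.6%) and zinc finger genes 11 of 106 (10.4%). Median liver percentiles of these groups ran from 32.6 (aminoacyl-tRNA synthetases, 3 regions) to 78.0 (respiratory chain and mitochondrial import, 9 regions). The median over all gene-pair regions was 52.5. Listed hepatocyte identity genes had 0 of 8 with a close neighbour and lymphocyte identity genes 0 of 14. These lists are too short for a count of 0 to be told apart from the 8.10% of all coding genes. Histone genes had 0 of 55, and H2ac22 and H2bc22 were at a paired-end region in all 3 lists. These shares are descriptions without a test.

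Most pairs of known strand had their starts on opposite strands within the 1000-bp limit. Strand was taken from the RefSeq start windows and was known for both nearest genes in 221 of 285 regions (77.5%). Of these, 181 had starts on opposite strands (81.9%, 76.2 to 86.7), 36 a start and a 3′ end (16.3%), 4 starts on the same strand and none a pair of 3′ ends. Paired-end regions in all 3 lists had a like share of opposite-strand starts, 28 of 34 of known strand (82.4%, 65.5 to 93.2). The genes of these 181 pairs were apart in 119 and overlapped in 62, and the region itself covered neither start in 65, 1 in 67 and both in 49. With strand missing for 64 regions, the shares are compared with those of all coding pairs by bounds only. If every region of unknown strand fell on 1 side, opposite starts would make up between 63.5% and 86% of gene-pair regions. For the 4810 coding gene pairs whose ends lie within 2000 bp, the same bounds are 20.9% and 55.8%. These ranges do not overlap, though the former counts regions and the latter gene pairs. Liver alone held 135 of the 181 with opposite starts (74.6%) and 27 of the 36 with a start and a 3′ end (75%). The liver median percentile was 53 in the former (45.4 to 60.7) and 43.2 in the latter (29 to 57.6), with intervals that overlap.

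The regions sat close to the gene ends that chose them. The paired ends were 0 to 1759 bp apart with a median of 148 bp, and 201 of 285 pairs (70.5%) were within 300 bp. Midpoints were a median of 46.5 bp from the nearer end and 209.5 bp from the farther one. The midpoint was inside 1 of the nearest genes in 165 regions (57.9%), inside both in 39 (13.7%) and outside both in 81. The genes overlapped each other in 97 pairs (34.0%). A region covered neither end in 111 cases, 1 end in 111 and both in 63. Widths ran from 50 to 650 bp with a median of 150 bp, and 103 regions (36.1%) were a single 50-bp bin wide, beside a median of 350 bp for the 41 at paired ends in all 3 lists. Other regions not in all 3 lists also had a median of 150 bp, both at 1 coding end and away from coding ends. Of these, 34.5% and 41.1% were 50 bp wide. Regions of 250 bp or more had a median liver percentile of 64.2 (n = 92), and those of 50 bp one of 43.3 (n = 103).

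**Figure D4:**
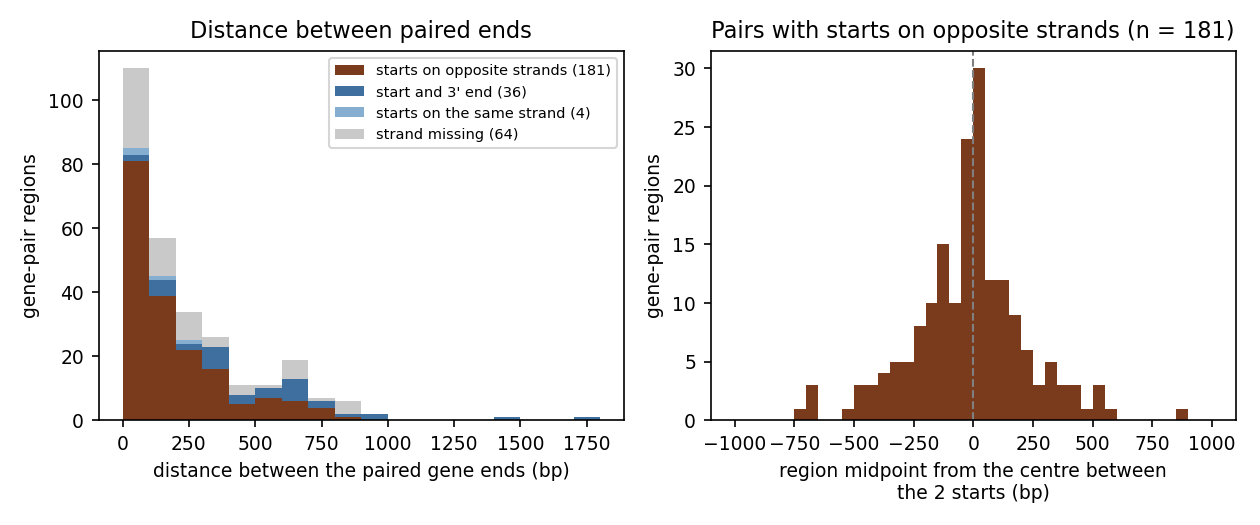
Left, number of gene-pair regions by distance between the paired gene ends (bp), stacked by arrangement of the genes (181 opposite starts, 36 start and 3′ end, 4 starts on the same strand, 64 strand missing). Right, for the 181 with starts on opposite strands, distance (bp) of the region midpoint from the centre between the starts, where most lie within 250 bp of 0.

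At the 1000-bp limit the farther end of the last regions inside was at 922.5 bp (Duxf3/Gm4981), 933.5 bp (Nup214/Aif1l) and 977.5 bp (Mageb3/Ctdspl2). The nearest outside were Fbxw5/C8g at 1001.5 bp, Srsf2/Mfsd11 at 1014.5 bp and Hnrnpa1/Cbx5 at 1021.5 bp, a pair with another region inside the limit. All 6 were of the liver list alone, with liver percentiles from 0.336 to 86.7 inside and from 20.8 to 47.1 outside.

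Some regions shared genes or ends. Genes touched by 2 regions numbered 7: Ccdc47, Ddx42, Gm40415, Gpbp1l1, Hgs, Plxna1 and Tmem69. At Gpbp1l1 and Tmem69 the regions were 350 bp apart and ranked very differently in liver, at percentiles of 10.1 and 86.5. The lower of them was also in the spleen list. In 3 regions (Asnsd1/Asdurf, Npcd/Cbx6 and Tti1/Rprd1b) the annotation puts an end of both genes at the same base. Of the 8 regions at 3 coding genes, the highest number at any, those with the next liver percentiles after Oplah/Gpaa1/Exosc4 and Trim23/Trappc13/Shld3 were Utp4/Chtf8/Derpc (83.8 in liver, 2.84 in spleen), Nup62/Il4i1b/Atf5 (80.9 in liver) and Timm13/Tmprss9/Lmnb2 (78.0 in liver, 24.7 in spleen). Chtf8 helps load the replication clamp, and Nup62 is a nuclear pore protein. Chromosomes 2 and 7 held 26 regions each, and chromosome 18 the fewest of the autosomes, 4.

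Gene start windows at the regions held the NRF1 core more often than windows of other genes did, by share. The windows, from RefSeq, run from 250 bases before to 50 after a gene start, and 1 was used for each of 411 genes with a start within 1000 bp of a region midpoint. The NRF1 core, as in the Cep57l1/Sesn1 sequence above, was in 74 of these (18%, 14.4 to 22.1). It was in 631 of the windows of all 17492 coding genes (3.61%, 3.34 to 3.89) and in 53 of 1623 windows of genes in opposite-strand pairs without a gene-pair region (3.27%, 2.46 to 4.25). Windows of genes at 1-end regions not in all 3 lists had a share of 20.9% (18.2 to 23.7, n = 867) and those of paired-end regions in all 3 lists 24.6% (14.5 to 37.3, n = 61), so the share was not higher at gene-pair regions than at other gene-end regions. Genes of a pair can share window sequence and are not independent. Counted by region, 55 of the 248 regions with a window had a match (22.2%). The like count was 186 of 879 at 1-end regions not in all 3 lists (21.2%) and 9 of 34 at paired-end regions in all 3 (26.5%).

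CpG content moved with the same division. The median number of CpG per window was 28 at gene-pair regions, 27 at 1-end regions not in all 3 lists, 29 at paired-end regions in all 3, 21 in opposite-strand pairs without a gene-pair region and 13 over all coding genes. Among windows with 21 to 35 CpG, the NRF1 core was in 41 of 230 at gene-pair regions (17.8%, 13.1 to 23.4), in 122 of 482 at 1-end regions not in all 3 lists (25.3%, 21.5 to 29.4), in 4 of 29 at paired-end regions in all 3 (13.8%, 3.89 to 31.7), in 18 of 692 of opposite-strand pairs without one (2.60%, 1.55 to 4.08) and in 301 of 4534 overall (6.64%, 5.93 to 7.4). Regions with the core in a window had a median liver percentile of 64.4 (54.8 to 71.5, n = 54) and those with a window but no core one of 48.0 (40.6 to 54.0, n = 193). That difference was noted after the values were seen and is a description.

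Most other motifs had shares close to those at 1-end regions not in all 3 lists. GC boxes, as in the Sfxn2/Arl3 sequence, were in 72.7% of windows at gene-pair regions (68.2 to 77.0), 76.8% of those at such 1-end regions, 61.6% of those of opposite-strand pairs without one and 46.3% overall. In the same order of groups, ETS cores were in 28.2% (23.9 to 32.8), 20.5% (17.9 to 23.4), 24.3% and 11.9%. CCAAT boxes were in 29.9% (25.5 to 34.6), 30.4%, 43.0% (40.6 to 45.5) and 39.0%, and TATA boxes in 4.38%, 5.31%, 6.22% and 13.3%. For YY1 cores the shares were 7.30%, 5.07%, 6.90% and 3.22%, for the cAMP response element 4.87%, 3.58%, 3.20% and 2.34%, and for E-boxes 11.9%, 10.4%, 10.3% and 7.90%. Within windows of 21 to 35 CpG, GC boxes were in 75.7%, 76.3%, 72.7% and 79.5%. ETS cores were then in 33.0%, 25.3%, 32.4% and 21.9%, and CCAAT boxes in 31.3%, 30.3%, 43.1% and 37.9%. At like CpG content the GC box share was thus not higher at gene-pair regions than over all coding genes.

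The p53 half-site was in 33 of the 411 windows (8.03%, 5.59 to 11.1), beside 7.33% of all coding windows (6.95 to 7.73) and 5.48% of those of opposite-strand pairs without a gene-pair region (4.43 to 6.71). It was in 4.73% of windows at 1-end regions not in all 3 lists (3.41 to 6.36), in 17.4% at 1-end regions in all 3 (11.8 to 24.3) and in 4.92% at paired-end regions in all 3 (1.03 to 13.7). A pair of half-sites with 0 to 13 bases between them was in 0 of 411 windows, which allows up to 0.894%, and in 7 of the 17492. Of the 129 gene-pair regions that lie wholly within a window 1 held a half-site, at Zscan29/Tubgcp4 (chr2:121171101-121171250), and none a pair. The half-site in the Sumf2/Cct6a sequence lies in a region that its window covers only in part. The other gene-pair regions were not searched over their whole length, and a search by exact letters misses response elements with mismatches.

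**Figure D5:**
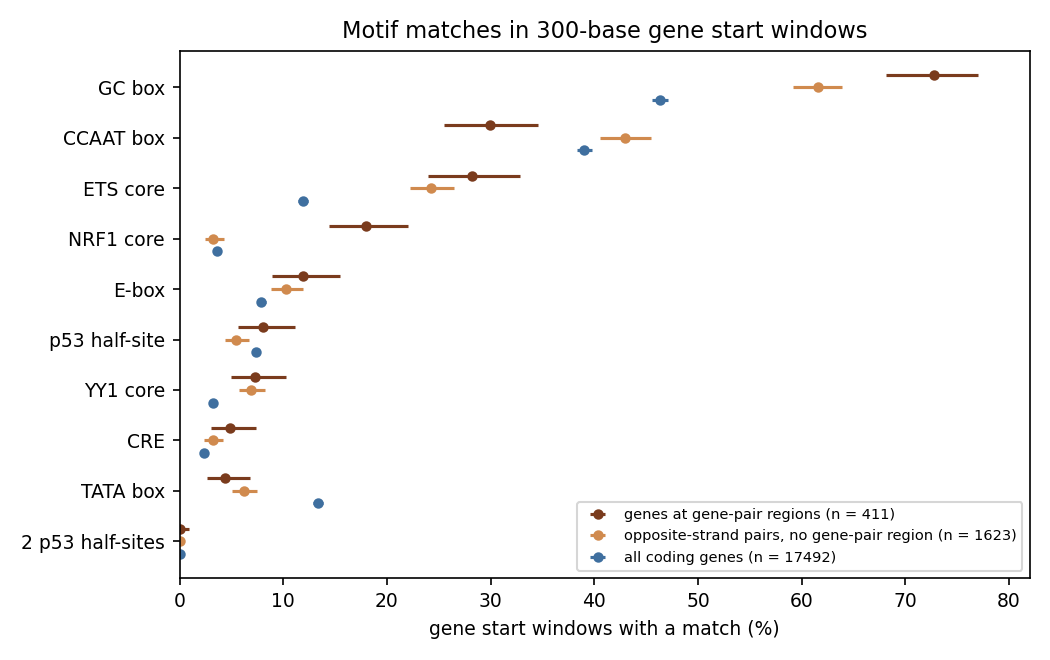
Share of 300-base gene start windows (%, horizontal axis) with a match to each motif, for genes at gene-pair regions (n = 411), genes of opposite-strand pairs without one (n = 1623) and all coding genes (n = 17492). Points are shares and bars exact 95% intervals: the NRF1 core stands at 18%, 3.27% and 3.61%.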

How the data were processed

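The deposited score is the authors' value for each region in 1 list per organ, and its scale is not given. The aligner and region caller, not given in the sources used here, are unknown. Build mm10 is named per the submitters' processing notes. All 4137 region starts lie on multiples of 50 bp, and the lists share identical coordinates. No per-library values were analysed, so depth is unknown. Members, gene lists and motifs were chosen with earlier results of these data known.

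From the lists, regions not in all 3 were kept, and a region counted at a coding gene end when its midpoint lay within 1000 bp. Scores became rank percentiles within a list (ties averaged). Shares carry exact Clopper-Pearson 95% intervals, and no p-value was computed. Gene ends came from RefSeq (GRCm38.p6, 21887 coding genes) and are the outermost ends of a gene, so starts of shorter transcripts were not considered. Strand and start windows were given for 17492 genes. Of 415 list symbols 2 matched through a synonym and 3 did not match.

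Named regions were, of liver alone, the 12 highest and 3 lowest percentiles, the 6 highest mean percentiles for each pair of lists, all of thymus alone, those at p53 target, repair, histone or chaperone genes (at most 12 per list), the 5 at most genes and the 3 on each side of the limit. Some regions that this rule names are not reported here. Scripts in Python 3.11.15 with pandas 2.3.3 and SciPy 1.17.1 were tested on simulated data. Alternatives changed the distance limit, its reference point, the gene set, the list lengths, the treatment of ties and near neighbours.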

Additional observations from a re-analysis of the deposited data

How the results depend on the processing

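Of 43 alternative values, 31 stayed within the interval or within 1.5 times the value given, and 12 did not. With only scores above the median of each list (its upper 50%), the rule chose 180 regions in place of 285, of which 150 were among the 285 and 30 were not, since shortening took them out of a list. Liver alone held 93.9% of them in place of 73.0% and 47.1% of the other regions in place of 54.5%. Median percentiles on the full-list scale were then 73.7 in liver (n = 177), 61.1 in spleen (n = 10) and 60.2 in thymus (n = 2), and the spleen and thymus values come from regions outside the 285, since none of the 285 is above 50 there. With lists shortened to the 2405 highest scores each, the rule chose 221 regions, 206 of them among the 285, and liver alone held 69.7% of the 221 but 31.7% of the other regions, and the medians were 66.5 in liver and 19.6 in spleen. Opposite-strand starts made up 88.9% with a limit of 500 bp, 71.3% with 2 kb and 97.8% with gene starts only, in place of 81.9%.

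No paired analysis was possible because each organ has 1 list and no value per library, so replicate numbers could not be used and leaving out a library was not possible. Input and untreated background could not be set beside the regions, and scores under the lowest value of a list (near 7.0) were not analysed.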
